A study of Oryza sativa with 4 samples.

Results

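The regions described here were the OsLEC1 binding peaks on 5 arms of rice chromosomes 3, 7 and 10. A peak was taken when its summit, the base with the highest ChIP coverage, lay more than 1 Mb from the start of chromosome 3 or 7, more than 2 Mb from the centromere (19.5 Mb on chromosome 3 and 12.2 Mb on chromosome 7), or at 10.2 Mb and beyond on chromosome 10, and in each case more than 1 Mb before the last summit of the chromosome. This gave 6203 of the 27452 OsLEC1 peaks (22.6%), of which 2161 were on the short arm of chromosome 3, 1508 on its long arm, 439 on the short arm of chromosome 7, 1193 on its long arm and 902 on the long arm of chromosome 10. The rule used positions only and no measured height.

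Peaks came from chromatin immunoprecipitation followed by sequencing (ChIP-seq) of callus, an undifferentiated tissue grown from mature seeds for 30 days on a medium with the auxin 2,4-D. The OsLEC1-ChIP library was made from 35S:3*FLAG-OsLEC1 callus, a transgenic line of Nipponbare that expresses FLAG-tagged OsLEC1 under the constitutive 35S promoter, and a single such line was used. The NIP-ChIP library came from callus of the untransformed Nipponbare (NIP), which has no tag, and was precipitated with the same anti-DDDDK antibody. Each genotype had 1 ChIP and 1 input library, so replicate error is not known for any value below.

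LEC1 (LEAFY COTYLEDON1) is a B subunit of nuclear factor Y, a heterotrimeric transcription factor known for binding the CCAAT box. In Arabidopsis, it is a main regulator of embryo development and seed maturation, including the storage reserves and desiccation tolerance of the seed. Rice descends from an ancestor whose genome was duplicated, and large parts of chromosome 3 still share blocks of duplicated genes with chromosomes 7 and 10, so these arms hold related gene content in regions that have been separate for a long time. The comparison of the arms asks whether OsLEC1 peaks are equally frequent, high and wide on them. Gene positions on the assembly of the files (IRGSP-1.0) were not used here, so no peak is assigned to a gene or to an exon, intron or promoter.

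The mean fragment coverage was not measured but estimated from the lowest background of a peak in each list. The estimate was 3.49 for OsLEC1-ChIP and at most 0.842 for NIP-ChIP, or at most 24.1% of the OsLEC1-ChIP value. For NIP-ChIP it rests on 2 peaks. NIP-ChIP had 2 peaks, both on chromosome 11, and 0 of them overlapped a peak on the 5 arms. With so much lower an estimated coverage, the absence of NIP peaks on these arms does not show what the control would hold at the depth of OsLEC1-ChIP.

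OsLEC1 peaks were most frequent on chromosome 3 and least frequent on the short arm of chromosome 7. The short arm of chromosome 3 held 131 peaks per Mb (95% interval 125.5 to 136.6) and its long arm 108.6 (103.2 to 114.3). The long arm of chromosome 7 held 82.52 peaks per Mb (77.9 to 87.34), the long arm of chromosome 10 held 75.2 (70.37 to 80.27), and the short arm of chromosome 7 held 47.72 (43.36 to 52.4). These exact Poisson intervals cover counting error only. They also take peaks as placed independently, whereas the counts of the 62 complete 1 Mb bins of the 5 arms had a variance of 21.4 times their mean, so the true uncertainty between places is wider.

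By chromosome, the arms of chromosome 3 held 120.8 peaks per Mb, against 68.99 on the arms of chromosome 7, a ratio of 1.75 (95% exact conditional interval 1.65 to 1.86). The ratio of chromosome 3 to the arm of chromosome 10 was 1.61 (1.49 to 1.73). The 2 arms of chromosome 7 differed from each other nearly as much as the chromosomes did, with 1.73 times as many peaks per Mb on the long arm as on the short arm (1.55 to 1.93). On chromosome 3, the short arm exceeded the long arm by a smaller ratio of 1.21 (1.13 to 1.29). The long arms of chromosomes 7 and 10 were neighbours in the order, with a ratio of 1.10 whose interval began at 1.006 (to 1.198).

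The 5 arms together were not denser than the other arms compared here. They held 93.94 peaks per Mb (91.61 to 96.3), against 93.88 (92.13 to 95.66) on the arms of chromosomes 1, 2, 5 and 6 taken by the same margins, and the ratio was 1.001 (0.970 to 1.032). Arms of the remaining chromosomes were not compared. Among the arms that were, the dense short arm of chromosome 3 exceeded the next densest only slightly. The ratio was 1.10 (1.03 to 1.16) over the long arm of chromosome 2 and 1.11 (1.05 to 1.18) over the long arm of chromosome 1. At the other end, the short arm of chromosome 7 had nearly the same density as the short arm of chromosome 5, with 47.72 and 48.19 peaks per Mb and a ratio of 0.990 (0.866 to 1.132).

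**Figure D1:**
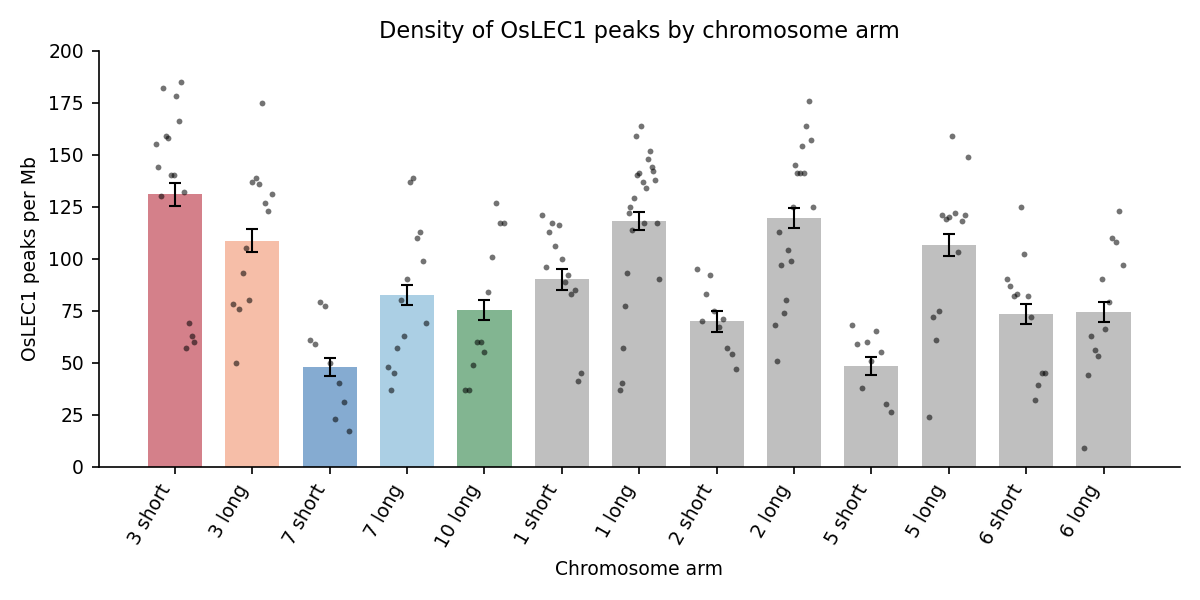
OsLEC1 peaks per Mb on the 5 arms of chromosomes 3, 7 and 10 (coloured) and on the arms of chromosomes 1, 2, 5 and 6 (grey). Bars give the arm's density with its 95% Poisson interval and points are complete 1 Mb bins; the short arm of chromosome 3 is highest at 131 and the short arm of chromosome 7 lowest at 47.72.

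The share of sequence under peaks followed the same order. Peaks covered 7.05% of the short arm and 5.34% of the long arm of chromosome 3, 3.98% of the long arm and 2.02% of the short arm of chromosome 7, and 3.42% of the arm of chromosome 10. The density of peaks whose −log10 q-value reached 50, called strong here, had this order of arms too. There were 12.8 and 8.79 strong peaks per Mb on the short and long arms of chromosome 3, against 2.94 and 6.85 on the short and long arms of chromosome 7 and 5.67 on the arm of chromosome 10. The ratio of strong peaks between chromosomes 3 and 7 was 2.06 (1.67 to 2.55), and that between chromosomes 3 and 10 was 1.93 (1.49 to 2.55). Both were above the ratios of all peaks, 1.75 (1.65 to 1.86) and 1.61 (1.49 to 1.73), but their intervals overlapped those. Between the 2 long arms of chromosomes 3 and 7 the ratio of strong peaks was 1.28, with an interval of 0.976 to 1.69 that did not separate them. For all peaks the ratio of these arms was 1.32 (1.22 to 1.42).

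From 2 to 11 Mb from the centromere, density increased with distance on every arm. Between 2 and 5 Mb from the centromere, the short and long arms of chromosome 3 held 67.67 and 60.67 peaks per Mb. Chromosome 7 held 27.67 and 43.33 on its short and long arms at this distance, and the arm of chromosome 10 held 42. Between 8 and 11 Mb, the values were 168.3 and 129 on chromosome 3, 65 and 103 on chromosome 7, and 82.33 on chromosome 10. The arms thus differed at matched distances as well. The ratio of chromosome 3 to chromosome 7 was 1.81 (1.53 to 2.15) at 2 to 5 Mb, 1.88 (1.64 to 2.15) at 5 to 8 Mb and 1.77 (1.59 to 1.98) at 8 to 11 Mb.

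Farther out, the difference was smaller. Between 11 and 14 Mb, both arms of chromosome 3 held 143.7 peaks per Mb, against 117.7 on the long arm of chromosome 7 and 119.9 on chromosome 10. The ratio was 1.22 (1.08 to 1.39) to chromosome 7 and 1.199 (1.06 to 1.36) to chromosome 10. The sparser short arm of chromosome 7 did not reach this distance. The ratio to chromosome 7 here is therefore to its long arm alone and is not like for like with the ratios nearer the centromere. The ratio to chromosome 10, which has the same arm throughout, was 1.81 (1.57 to 2.09) at 8 to 11 Mb. On the long arm of chromosome 7, the 2 outermost complete bins held 99 and 69 peaks, fewer than the 139 of its densest bin, whereas the last megabase beyond the arm held 123. For chromosome 10 the distance was counted from 8.2 Mb, the start of its arm less the 2 Mb margin, so its distances are approximate. Across the complete bins, the Spearman correlation of count and distance was 0.938 on chromosome 10 (11 bins), 0.817 on the short arm (9 bins) and 0.72 on the long arm (13 bins) of chromosome 7, 0.714 on the long arm (13 bins) and 0.484 on the short arm (16 bins) of chromosome 3. Bins share a library and adjoin each other, so these values describe the arms and carry no test.

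**Figure D2:**
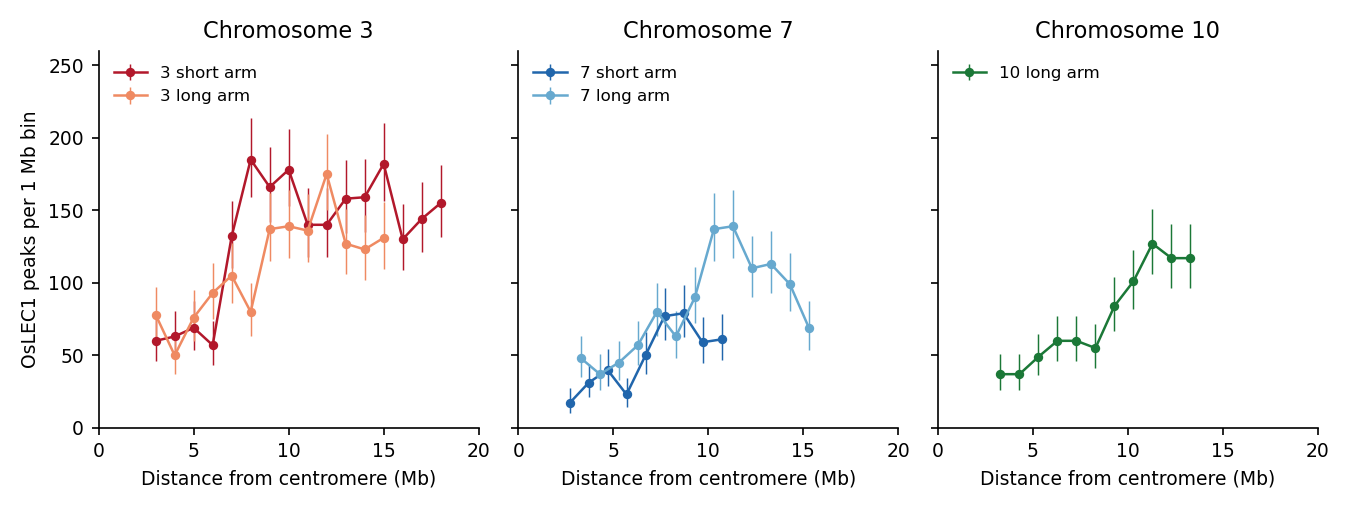
OsLEC1 peaks in each complete 1 Mb bin against the distance of the bin's middle from the centromere in Mb, for chromosomes 3, 7 and 10, with 95% Poisson intervals as vertical lines. The short arm of chromosome 3 goes up steeply at 6 to 8 Mb to its highest bin of 185, and the other arms more gradually.

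The increase was not even along the arms. The dense stretch of the short arm of chromosome 3 ended near 13 Mb, with 155.8 peaks per Mb before this position and 64.89 after it, toward the centromere. In windows of 100 kb, the 12 from 12000001 to 13200000 held 9 to 16 peaks each (median 12.5), the next 4 held 1 to 6, and the 8 after them 3 to 8. Similar contrasts were seen on the other arms: 135.9 beyond 28 Mb against 77.69 before it on the long arm of chromosome 3, 69 before 5 Mb against 31.35 beyond it on the short arm of chromosome 7, 111 beyond 22 Mb against 58.21 before it on its long arm, and 109.5 beyond 17 Mb against 48.97 before it on chromosome 10. These positions were chosen after the bin counts were seen, so the contrasts are descriptions.

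The median fold differed little across these positions. The share of strong peaks was larger in the dense stretch, most of all on chromosome 7, but the intervals of the 2 stretches overlapped on every arm. On the short arm of chromosome 3, the dense stretch and the sparse stretch had median folds of 5.19 and 5.37, and 9.85% and 9.25% of their peaks were strong. On the short arm of chromosome 7, the dense and sparse stretches had median folds of 5.11 and 5.35, and 7.97% (5.06 to 11.8) and 3.07% (1.003 to 7.01) of their peaks were strong. On the long arm of chromosome 7, 10.01% (7.95 to 12.4) of peaks were strong in the dense stretch, against 5.51% (3.595 to 8.02) in the sparse stretch. The shares were closer on the long arm of chromosome 3, 8.38% against 7.53%, and on chromosome 10, 7.91% against 6.91%.

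The share of broad peaks, those of 1000 bp or more, was higher in the dense stretch on 4 of the 5 arms. Only on the short arm of chromosome 3 did the intervals of the 2 stretches not overlap. The share there was 9.20% (7.93 to 10.6) in the dense stretch, against 2.06% (0.758 to 4.42) in the sparse stretch. On the long arm it was 6.68% (5.21 to 8.41) against 3.56% (2.13 to 5.58). The dense and sparse stretches had 6.50% and 3.08% on the long arm of chromosome 7, and 4.04% and 2.102% on chromosome 10. The order was the other way round on the short arm of chromosome 7, with 2 broad peaks in each stretch, or 0.725% of the dense and 1.23% of the sparse one.

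The densest complete 1 Mb bin of the 3 chromosomes was on chromosome 3, from 11000001 to 12000000, with 185 peaks (159.3 to 213.7). The densest bin of chromosome 7 was 23000001 to 24000000 with 139 peaks (116.9 to 164.1), and that of chromosome 10 was 19000001 to 20000000 with 127 (105.9 to 151.1). The bin of chromosome 3 thus held 1.33 times the peaks of that of chromosome 7 and 1.46 times those of that of chromosome 10. It held little more than the densest bin of chromosome 2, which had 176. Of the 10 densest of the 172 complete bins on these arms and those of chromosomes 1, 2, 5 and 6, 6 were on chromosome 3 and 0 on chromosome 7 or 10. Bins with at least 100 peaks numbered 12 of 16 on the short arm of chromosome 3, 8 of 13 on its long arm, 0 of 9 on the short arm of chromosome 7, 4 of 13 on its long arm and 4 of 11 on chromosome 10.

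The 3 densest bins differed in their share of strong peaks, although the intervals overlapped. In the bin of chromosome 7, 26 of 139 peaks were strong (18.7%, exact Clopper-Pearson interval 12.6 to 26.2), against 15 of 185 (8.11%, 4.61 to 13.02) in that of chromosome 3 and 12 of 127 (9.45%, 4.98 to 15.9) in that of chromosome 10. The peaks in the bin of chromosome 7 had a median of 48 fragments over the summit, against 42 on chromosome 3 and 40 on chromosome 10. Their median background was also higher, 7.63 against 6.68 in both other bins. The median fold was 5.597 in the bin of chromosome 7, 5.6 in that of chromosome 10 and 5.21 in that of chromosome 3. The bins of chromosomes 3 and 7 had similar shares of broad peaks, 10.8% and 11.5%, and that of chromosome 10 had 4.72%. In the bin of chromosome 3, 28.8% of neighbouring summits were under 2 kb apart, against 22.5% on chromosome 7 and 15.9% on chromosome 10. This is the order of their peak counts, on which the spacing depends by construction.

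Within these bins, the peak with the highest fold on chromosome 3 was chr3:11287741-11288281, with a fold of 19.9 and 171 fragments over the summit. That of chromosome 7, chr7:23794863-23796797, was 1935 bp wide, with a fold of 25.2 and 169 fragments. That of chromosome 10, chr10:19300513-19300967, had a fold of 19.6 from 87 fragments, because its background was at the genome-wide floor of 3.49. The folds of the first and the last were thus nearly equal although their fragment numbers were not.

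Peak height differed far less between arms than peak number. Heights are those of called peaks only, and the q-value limit of 0.01 left out lower summits on every arm. The fold is the authors' ratio of ChIP fragments over the summit plus 1 to the local background plus 1. Its median was 5.21 and 5.11 on the short and long arms of chromosome 3, 5.21 and 5.34 on those of chromosome 7, and 5.21 on chromosome 10. The median number of fragments over the summit was 42 and 39 on the short and long arms of chromosome 3, 36 and 39 on those of chromosome 7, and 38 on chromosome 10. The median over all peaks of the 5 arms was 40 fragments, against 39 on the arms of chromosomes 1, 2, 5 and 6.

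Strong peaks made up 9.76% (8.55 to 11.1) of the peaks on the short arm of chromosome 3 and 8.09% (6.76 to 9.58) on its long arm. They made up 6.15% (4.09 to 8.82) on the short arm of chromosome 7, 8.30% (6.80 to 10.0) on its long arm and 7.54% (5.90 to 9.46) on chromosome 10. Over all peaks on the chromosomes, the share was 8.00%. All of the intervals of the 5 arms overlap, those of the short arms of chromosomes 3 and 7 the least.

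The local background was higher where peaks were more frequent. Across the 62 bins, the number of peaks had a Spearman correlation of 0.757 with the median background of its peaks, 0.508 with the median fragment number and 0.673 with the median width, but of −0.111 with the median fold. These values pool arms of unlike density. Within single arms, the correlation was 0.312 to 0.859 with background and 0.0833 to 0.668 with fragment number. That with width was 0.549 to 0.792 on 3 arms, but 0.117 on the short arm of chromosome 7 and −0.11 on chromosome 10. The share of peaks whose background was at the floor was 2.36% and 3.65% on the short and long arms of chromosome 3, 5.24% and 5.78% on those of chromosome 7, and 4.88% on chromosome 10, so that on chromosome 7 the denser arm did not have the smaller share. The part of the background in the density was not tested.

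**Figure D3:**
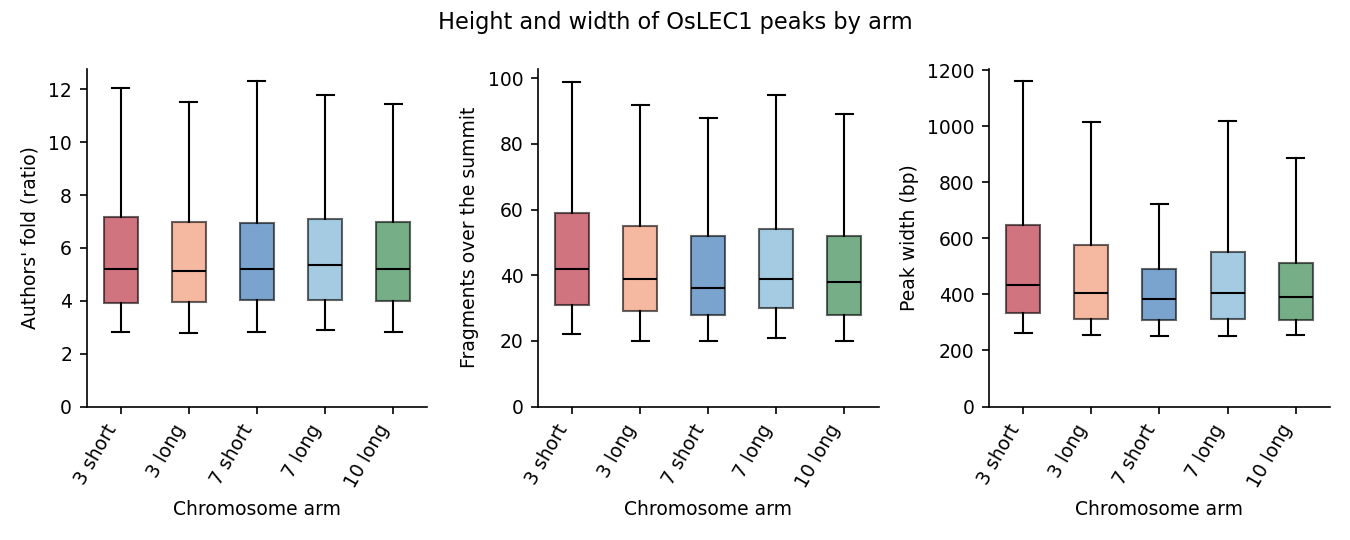
Authors' fold (ratio), fragments over the summit and peak width (bp) of the OsLEC1 peaks on each of the 5 arms. Boxes show the quartiles with the median as a black line and whiskers the 5th and 95th percentiles; median folds lie between 5.11 and 5.34 on all arms, and widths reach highest on the short arm of chromosome 3.

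The highest fold of an arm was 27.7 to 32.1, apart from the short arm of chromosome 7. On the short arm of chromosome 3, the highest fold was 31.8 at chr3:6730565-6731293, from 152 fragments (128.8 to 178.2) over a background of 3.82. The highest −log10 q-value of all 5 arms, 303.9, belonged to chr3:8923256-8924039, with 276 fragments (244.4 to 310.6), a background of 8.06 and a fold of 30.6. On the long arm, chr3:33604748-33605391 led by both measures, with a fold of 32.1, a −log10 q-value of 212.1 and 184 fragments (158.4 to 212.6).

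On the short arm of chromosome 7, the highest fold was 21.6 at chr7:2733439-2733973 (102 fragments), and the highest −log10 q-value was 169.1 at chr7:4359729-4360591 (179 fragments, fold 20.9). On the long arm, chr7:20629670-20630367 had a fold of 27.7 from 185 fragments, and chr7:22168580-22169382 had the highest −log10 q-value of 213.8 from 205 fragments. The short arm of chromosome 7 thus had no peak with a fold above 27. Such folds were rare in the whole list, where the fold of 27.7 had rank 37 of 27452 peaks. With only 439 peaks on this arm, their absence is not read as a trait of the arm.

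Both leading peaks of chromosome 10 were broad. The peak chr10:21710783-21712124 was 1342 bp wide with a fold of 30.7 and 177 fragments, and chr10:20372387-20373684 was 1298 bp wide with a fold of 30.0, 195 fragments and the highest −log10 q-value of the arm, 217.5. The leading peaks of chromosomes 3 and 7 were 535 to 863 bp wide. Among the 100 peaks with the highest fold in the whole list, 19 were on these arms, 8 and 4 on the short and long arms of chromosome 3, 0 and 4 on those of chromosome 7 and 3 on chromosome 10. By −log10 q-value, 22 of the top 100 were on these arms, 9 and 6 on the short and long arms of chromosome 3, 1 and 3 on those of chromosome 7 and 3 on chromosome 10. Both numbers are near or below the 22.6% of all peaks that the arms hold.

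The share of broad peaks separated the arms more than the share of strong peaks did. Median widths were closer together, at 435 and 405.5 bp on the short and long arms of chromosome 3. On chromosome 7 they were 382 and 404 bp, and on chromosome 10 the median was 390 bp. Broad peaks were 8.24% (7.11 to 9.48) of the peaks on the short arm of chromosome 3 and 5.64% (4.53 to 6.92) on its long arm. They were 5.20% (4.01 to 6.61) on the long arm of chromosome 7 and 3.33% (2.26 to 4.71) on chromosome 10, but only 4 of 439 on the short arm of chromosome 7 (0.911%, 0.249 to 2.32). Over all peaks on the chromosomes, the share was 5.21%. Neither end of the range was particular to these arms, since the long arms of chromosomes 1 and 2 had 8.10% and 8.32%, and the short arm of chromosome 5 had 1.55% (0.624 to 3.16). The widest peak of the 5 arms was chr3:31606023-31608796, with 2774 bp and a fold of 9.81.

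Strong peaks were wider on every arm, and the order of the arms held in part at a matched −log10 q-value. Among peaks with a −log10 q-value of 20 to 50, 13.95% were broad on the short arm and 11.1% on the long arm of chromosome 3, against 3.42% on the short arm and 6.98% on the long arm of chromosome 7 and 7.76% on chromosome 10. Among strong peaks, the long arm of chromosome 7 had the largest share, 26.3% (17.9 to 36.1), against 22.3% (16.9 to 28.5) on the short arm of chromosome 3. On the short arm of chromosome 7, 0 of 27 strong peaks were broad, which allows a share of up to 12.8%.

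Neighbouring summits were closest on the short arm of chromosome 3. Distances shorten by construction as peaks per Mb increase, so they largely restate the density and are not a separate trait. Spacing at a matched density was not tested. Their median distance was 4.73 kb there and 5.86 kb on the long arm, against 9.68 kb on the short arm and 6.26 kb on the long arm of chromosome 7 and 7.03 kb on chromosome 10. Under 2 kb lay 23.6% (21.8 to 25.4) of the distances on the short arm of chromosome 3 and 19.6% (17.6 to 21.7) on its long arm. This share was 12.3% (9.40 to 15.8) on the short arm of chromosome 7, 19.1% (16.9 to 21.5) on its long arm and 15.9% (13.5 to 18.4) on chromosome 10. Over the 5 arms it was 19.8%, against 19.9% on the arms of chromosomes 1, 2, 5 and 6.

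Runs of 3 or more summits, each under 2 kb from the next, numbered 218 and held 725 peaks, or 11.7% of the peaks of the 5 arms. The share was the same on the arms of chromosomes 1, 2, 5 and 6, where 380 runs held 1273 peaks, or 11.7%. Of the 218 runs, 164 had 3 summits and 42 had 4. The longest of the 218, with 7 summits each, were found at chr3:1168396-1176416 and chr7:4560527-4568548, and the long arm of chromosome 6 had a run of 8. Their peaks had folds of 2.26 to 8.06 in the run of chromosome 3 and 2.54 to 7.11 in that of chromosome 7, so that the highest peak of each was in the upper quartile of its arm. A long run thus stood on the arm with the fewest close neighbours as well.

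**Figure D4:**
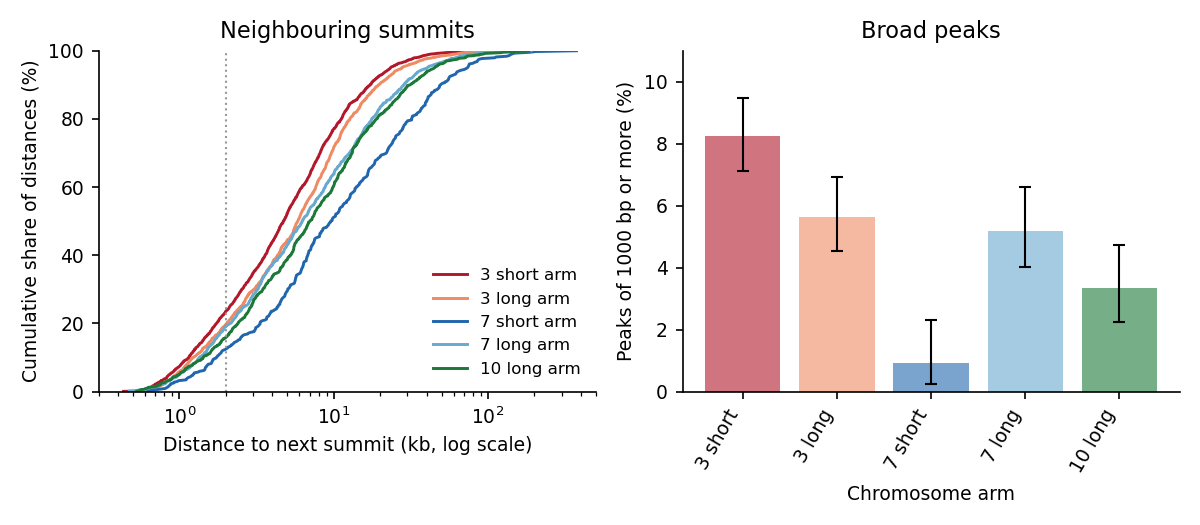
Left, cumulative share (%) of distances between neighbouring summits on each arm (kb, log scale), with a dotted line at 2 kb. Right, share (%) of peaks of 1000 bp or more with 95% Clopper-Pearson intervals; the short arm of chromosome 7 has the longest distances and the smallest share of broad peaks, 0.911%.

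The longest distance between neighbouring summits within an arm was nearer to the centromere than to the chromosome end on each of the 5 arms. It was 374.6 kb on the short arm of chromosome 7, between summits at 9613964 and 9988577. It was 189.9 kb on the long arm of chromosome 7, 184.4 kb on chromosome 10, 169.8 kb on the long arm of chromosome 3 and 165.5 kb on its short arm, where it lay between 13318012 and 13483519, at the end of the dense stretch. These distances leave out those that cross the bounds of an arm, of which the longest, 669.5 kb, lay between the summit at 13780452 outside and the summit at 14449909 inside the long arm of chromosome 7. Within the arms, distances over 100 kb numbered 2 and 4 on the short and long arms of chromosome 3, 10 and 5 on those of chromosome 7, and 7 on chromosome 10.

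The regions left out by the rule were sparse around the centromeres, but not all of them were sparse. The 4 Mb around the centromere held 43 peaks per Mb on chromosome 3 and 24.5 on chromosome 7, and chromosome 10 before its arm held 27.35. The last megabases held 100, 123 and 114 peaks per Mb on chromosomes 3, 7 and 10, and the starting megabases of chromosomes 3 and 7 held 113 (93.13 to 135.9) and 60 (45.79 to 77.23), close to the densities of arms of the same chromosomes. The peaks just inside the bounds of the rule had folds of 2.43 to 13.7, and those just outside had folds of 4.68 to 9.96.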

How the data were processed

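ChIP-seq was analysed from the peak lists of OsLEC1-ChIP and NIP-ChIP, in which the inputs had served as background. Per the methods and the submitters' processing notes, the authors aligned reads to IRGSP-1.0 with Bowtie2 2.3.4.1, kept uniquely mapped reads and called peaks with MACS2 2.1.2 against input at a q-value of 0.01. Repeats without unique reads could therefore give no peak. An IDR filter for replicates is named in the methods although each group had 1 library, and the library kit differs between methods and labels.

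For each peak the authors deposited positions, the peak caller's fold (a ratio), p- and q-values as −log10, and a score, which in 100% of peaks was the integer part of 10 times the −log10 q-value. The fragment number and background of each peak were solved from the deposited fold and −log10 p-value (within 0.001, 100% of peaks). The lowest background estimates the mean coverage, since library totals were not used here. On simulated data, 100% of 2000 peaks were recovered, and 94.8% of 1000 ratio intervals held the true ratio. The ratio simulation drew independent Poisson counts, as the intervals assume. It therefore checks the calculation only and does not cover the uneven placing of the real peaks.

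Starts were changed to 1-based positions. Arms of chromosomes 1, 2, 5 and 6 were taken with assumed centromeres of 16.7, 13.6, 12.4 and 15.3 Mb. Densities have exact Poisson, ratios exact conditional binomial and shares exact Clopper-Pearson intervals at 95%, computed with Python 3.11.15, pandas 2.3.3 and scipy 1.17.1. No p-value was computed. Named peaks were those with the highest fold and highest −log10 q-value of each arm and the highest fold of each chromosome's densest bin; widest peaks, runs and gaps were named after their values were seen. The members and lists were chosen with earlier results of these data known. Genes, duplicated gene pairs and sequence words were not analysed here, because the gene table at hand is on another assembly.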

Additional observations from a re-analysis of the deposited data

How the results depend on the processing

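When peaks had to reach a −log10 q-value of 5, the density was 123.2 and 100.9 peaks per Mb on the short and long arms of chromosome 3, 77.82 on the long arm of chromosome 7 and 70.11 on chromosome 10. At a limit of 10, the values were 95.64 and 77.58 on the short and long arms of chromosome 3, 33.59 and 59.83 on those of chromosome 7, and 52.19 on chromosome 10. Distances under 2 kb between neighbouring summits made up 18.48% at the limit of 5 and 13.96% at 10, and distances under 1 kb 5.873% of all. Fewer peaks or a shorter limit enter these values by construction. The density ratios stayed within their intervals under every alternative run for them, which included 1 Mb more taken off the centromere side. The number of members and the densest bins, the latter also with bins shifted by 500 kb, changed by less than 1.5 times. At a limit of 10 these counts nevertheless fell below their intervals. Members went from 6203 (6050 to 6359) to 4455. The densest bins of chromosomes 3, 7 and 10 went from 185, 139 and 127 to 139, 110 and 97. No paired analysis was possible because there were no replicates, so none could be left out. Alternatives on gene starts and duplicated pairs were not run, since no annotation on IRGSP-1.0 was used here. The depth of NIP-ChIP limits the comparison with the control.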
